A study of Mus musculus with 167 samples.

Results

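The nuclear genes of the mitochondrial respiratory chain were followed across asbestos-induced tumours of many mouse strains. Members were all genes whose mouse symbol begins with Ndufa, Ndufb, Ndufc, Ndufs, Ndufv, Sdh, Uqcr, Cox4 to Cox8 or Atp5, without the symbols that carry -ps. The rule uses names and no measured value. Of the 36118 genes of the count table it took 98 that passed the filter on low counts and 4 that did not. Of the members, 36 are subunits of complex I, 4 of complex II, 8 of complex III, 20 of complex IV and 17 of complex V, 12 are assembly factors of complexes I and II, and 5 are further copies with no role assigned here. RNA was sequenced from 167 tumours of 119 mice of 35 strains, 83 mice above and 36 below median survival. Every mouse was the offspring of a male of 1 Collaborative Cross line (a panel of inbred mouse lines of mixed ancestry) and a female MexTAg mouse, in which the mesothelin promoter drives large T antigen of SV40, so that all groups share this oncogene in mesothelial cells. All mice received 2 intraperitoneal doses of 3 mg of crocidolite, an asbestos, and no therapy; ages are not given in the labels. A strain is called here by the name of its male line, whole tumours were used, and each mouse is 1 sample, with the counts of its tumours summed.

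The respiratory chain lies in the inner mitochondrial membrane. Complexes I and II take electrons from NADH and succinate, complex III passes them through cytochrome c to complex IV, which reduces oxygen, and complex V (ATP synthase) uses the proton gradient so built up. Most subunits are encoded in the nucleus and some in the mitochondrial genome, and nuclear respiratory factor 1 (NRF1) and ETS factors such as GABP are known regulators of many of the nuclear genes. Several complex IV subunits exist in a widely expressed form and a form typical of muscle, lung, testis or hypoxic cells.

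Promoter sequence was found for 78 members in RefSeq tables (build GRCm38.p6). Each window runs from 250 bases before to 50 bases after the annotated start. Words were searched on both strands. The NRF1 word GCGCANGCG (N is any base) was present in 24 of the 78 members (30.8%), in 14.6% of 9854 genes at a mean of 5 CPM (the usual unit, a gene's count scaled to a common library total) or more, and in 7.03% of all 27025 genes of the table. The ETS word CCGGAAG was present in 21 members (26.9%), in 19.5% of the expressed genes and in 9.93% of all genes. The YY1 word AANATGGCG was present in 12 members (15.4%), against 5.81% of the expressed genes and 2.76% of all genes. The word TCAAGGTCA of oestrogen-related receptors was present in 2 members (2.56%), against 0.304% and 0.466%. Each word was counted on its own, and matches of different words may overlap. The 4 promoters below each hold an NRF1 word, as 24 of the 78 members do, and show where such words lie relative to the start. They do not stand for all members. Ndufa8, Ndufa11 and Ndufs5 are described later. Ndufa8 and Ndufa11 are subunits of complex I that follow the common strain pattern closely. Ndufs5 is another, whose level departs from the mean of the members in some strains. Sdhd is a membrane anchor of complex II. The 250 bases before the start are printed in the direction of the gene, with matches in capitals. Their positions are Ndufa8 chr2:36049339-36049588 (minus strand), Ndufa11 chr17:56717512-56717761 (plus strand), Ndufs5 chr4:123718187-123718436 (minus strand), Sdhd chr9:50603850-50604099 (minus strand).

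Ndufa8: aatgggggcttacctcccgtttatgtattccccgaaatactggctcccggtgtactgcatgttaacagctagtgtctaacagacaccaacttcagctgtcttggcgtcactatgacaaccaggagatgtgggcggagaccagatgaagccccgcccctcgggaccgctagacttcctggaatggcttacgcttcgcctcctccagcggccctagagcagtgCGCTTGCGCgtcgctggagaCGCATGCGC
Ndufa11: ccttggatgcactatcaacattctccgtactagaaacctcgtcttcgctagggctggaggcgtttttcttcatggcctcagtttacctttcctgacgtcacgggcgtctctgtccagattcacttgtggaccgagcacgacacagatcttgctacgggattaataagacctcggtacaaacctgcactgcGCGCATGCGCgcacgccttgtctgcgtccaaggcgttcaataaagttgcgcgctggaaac
Ndufs5: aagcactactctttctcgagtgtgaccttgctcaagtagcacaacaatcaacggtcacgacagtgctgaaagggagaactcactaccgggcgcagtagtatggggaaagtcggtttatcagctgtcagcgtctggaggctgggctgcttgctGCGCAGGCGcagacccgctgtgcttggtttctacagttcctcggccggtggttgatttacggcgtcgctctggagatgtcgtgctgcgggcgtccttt
Sdhd: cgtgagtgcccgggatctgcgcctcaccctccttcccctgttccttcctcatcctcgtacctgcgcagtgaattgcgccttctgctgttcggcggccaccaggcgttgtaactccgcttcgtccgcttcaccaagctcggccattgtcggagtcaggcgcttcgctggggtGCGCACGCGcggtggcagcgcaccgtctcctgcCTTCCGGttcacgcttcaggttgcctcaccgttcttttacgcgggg

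Every NRF1 match printed begins within the last 100 bases before the start. Matches begin 29 and 9 bases before the start of Ndufa8, 60 and 59 (on opposite strands, overlapping) before that of Ndufa11, 98 before that of Ndufs5 and 79 before that of Sdhd. The printed bases of Sdhd also hold an ETS word 46 bases before the start. Its whole window holds a word of oestrogen-related receptors as well, which is not within the printed bases. A match describes the sequence and is no evidence of binding. Members with the NRF1 word did not follow the common pattern more closely than those without it: the median correlation with the other members over strain means was 0.77 for 24 tested members with it and 0.80 for 53 without it.

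The total per library ran from 11138491 to 35399287 estimated counts (median 22539831), and members took between 0.318% and 1.60% of the counts of a library (median 0.580%). Of 12 mesothelial marker genes 11 had a median of at least 1 CPM over the mice. Marker genes of a single other tissue exceeded 1% of counts in 23 libraries (25 when all these tissues were summed), and 7 libraries correlated more with another strain than with that of their label over 300 strain-marking genes, 5 of them by over 0.1. Results that rest on either set are given without it where a count moved by over 1.5 times or a call changed. Fewer cells of a type and less RNA per cell cannot be told apart in such whole-tumour samples. Mice are the replicates, and every p-value rests on the spread between mice.

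Per kilobase of the principal transcript, subunits of ATP synthase and of complex IV had the highest levels. Levels between genes are compared only on this scale, as the median over the 119 mice. In complex V, Atp5b, the catalytic beta subunit, was highest at 346 CPM per kilobase, and Atp5s, the coupling factor B, was lowest at 2.83. In complex IV, Cox4i1 was highest among the widely expressed subunits at 256 CPM per kilobase and Cox7a2 lowest at 53.5. In complex III, Uqcrh, the hinge protein, stood at 129 and Uqcrfs1, the Rieske iron-sulfur protein, at 36.3. In complex II the flavoprotein Sdha stood at 62.5 and the membrane anchor Sdhc at 18.6. In complex I the range ran from Ndufa6 at 101.6 to Ndufb4 at 4.65. Ndufb4 has a near-identical copy, Ndufb4c, annotated as a processed pseudogene, which was listed at a median of 26.3 CPM (10.2 to 79.2 CPM over mice) against 4.52 CPM (1.45 to 16.3) for Ndufb4. How reads were divided between these copies is not given in the sources used here, so neither value is certain.

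The members rose and fell together across strains. Centred log2 CPM were averaged over the 98 members that passed the filter on low counts, to give 1 mean per mouse. Over the 25 strains with at least 3 mice, this mean was lowest in CC001 at -0.54 ± 0.20 (SD, n = 3) and highest in CC046 at 0.37 ± 0.11 (n = 3), a range of 0.91 on the log2 scale. In CC001 the mice lay between -0.77 and -0.38, and in CC046 between 0.27 and 0.48, so these groups did not overlap. CC036 (-0.39 ± 0.10, n = 3), Piping (-0.37 ± 0.26, n = 3) and CC060 (-0.36 ± 0.17, n = 3) were next lowest, and CC040 (0.25 ± 0.18, n = 4), Boon (0.20 ± 0.29, n = 4) and Rogan (0.20 ± 0.22, n = 4) next highest. Neighbours in this order differed by less than the larger of their SDs. The highest strain was CC040 when the tissue isoforms of complex IV were left out and CC044 without scaling, with CC001 lowest in both. Strain accounted for 44.6% of the variance of the mean between mice, a share not adjusted for the number of strains. For single genes at a mean of 5 CPM or more, the median share was 39.1% over 88 members and 37.3% over all 12839 genes. In 35 mice with several tumours (83 tumours), the SD between tumours of 1 mouse was 0.20, against 0.39 over the first tumours of all mice. These SDs rest on different mice. The highest tumours, TOFU-K2 (1.61), PUB-I1 (1.37) and TAS-I1 (1.18), are of mice with 1 tumour and enter the second SD alone.

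**Figure D1:**
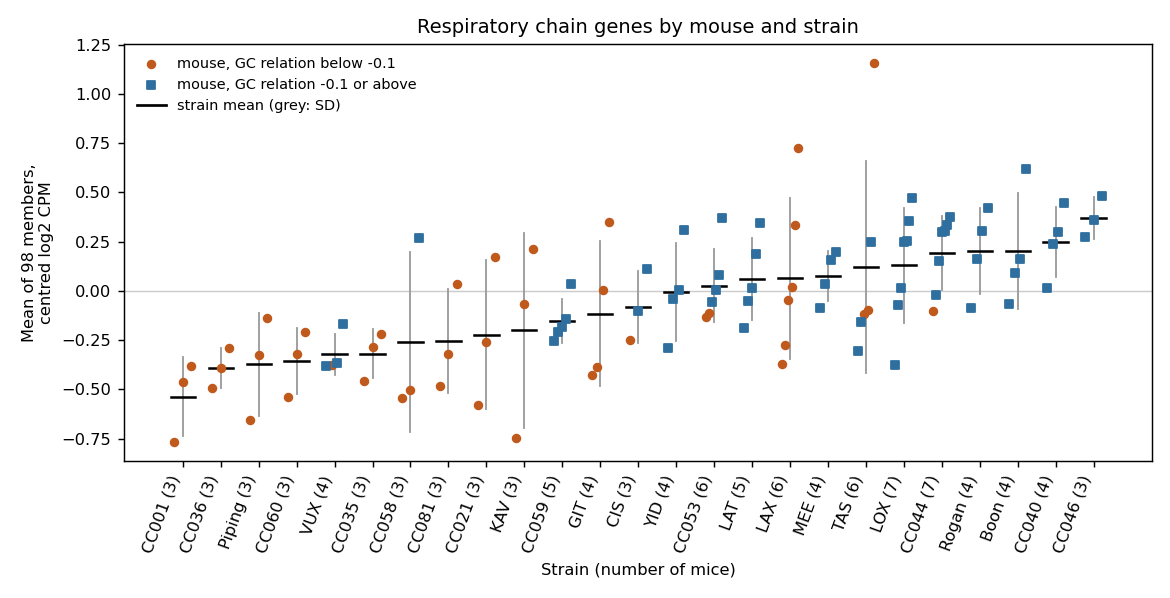
Mean of 98 respiratory chain genes (centred log2 CPM) in each mouse of 25 strains, with strain mean (black) and SD (grey). Colours mark mice by the relation of all other genes' levels with transcript G+C content, below -0.1 (orange circles) or not (blue squares), and 8 of the 10 strains of lowest mean hold libraries below -0.1 alone.

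Single members show the same order, here with examples chosen after their values were seen. Ndufa8, a complex I accessory subunit, stood at 16.3, 17.6 and 30.5 CPM in the 3 CC001 mice and at 42.7, 57.7 and 93.5 CPM in the 3 CC046 mice. Atp5o, the subunit of ATP synthase that confers oligomycin sensitivity, stood at 51.3, 66.2 and 82.5 CPM in CC001 and at 129, 134 and 156.3 CPM in CC046. Cox4i1, the regulatory subunit of complex IV, stood at 111.03, 114.9 and 141 CPM in CC001 and at 238, 272, 419 and 437 CPM in CC040. All 3 genes were lower in every CC001 mouse than in every mouse of the compared strain. Not all members were high in CC046: 24 of 98 lay below their own mean there, among them Cox4i1 (-0.01), Atp5b (-0.45) and Atp5a1 (the alpha subunit of ATP synthase, -0.67), in centred log2 CPM. Between the 25 strains, 69 of 98 tested members differed (edgeR quasi-likelihood F-test, Benjamini-Hochberg adjusted p under 0.05 over 20687 genes). The share of all genes called was 69%, so the members' share, 70.4%, lies near the background. Their correlation with the mean of the other members over the strain means had a median of 0.76, and 44 of 98 exceeded 0.80. Ndufa8 (0.95), Atp5o (0.94) and Ndufa13 (0.94) were most alike.

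The complexes moved in parallel, without the tissue isoforms of complex IV. The mean of complex IV was taken over 12 genes that exclude these isoforms, while the counts of calls below include those that were tested. The mean of complex I correlated with those of complexes II, III, IV and V at 0.89, 0.96, 0.95 and 0.95 over 119 mice, a description of values that share libraries and scaling. CC001 was lowest for complexes I (-0.62 ± 0.20), III (-0.62 ± 0.29), IV (-0.56 ± 0.40) and V (-0.51 ± 0.14; SD, n = 3 each). Complex II was lowest in Piping (-0.52 ± 0.19, n = 3). The highest strain was CC046 for complexes I (0.42 ± 0.14, n = 3) and V (0.33 ± 0.17, n = 3), CC044 for complex III (0.32 ± 0.25, n = 7), CC040 for complex IV (0.39 ± 0.31, n = 4) and TAS for complex II (0.29 ± 0.85, n = 6), where mouse TAS-I1 stands apart. The widest gap between 2 complexes in a strain was that of complex II below complex IV in CC058, -0.35 ± 0.31 (n = 3). Called members were 29 of 36 in complex I, 2 of 4 in complex II, 5 of 8 in complex III, 13 of 18 in complex IV, 13 of 17 in complex V and 4 of 12 among the assembly factors, where 69% of all genes were called. Differences between these shares were not tested.

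The 13 subunits encoded by mitochondrial DNA had another order of strains. Their mean correlated with that of complex I at 0.38 (Spearman 0.17) over 119 mice. It was highest in CC046 (0.83 ± 0.45, n = 3) and lowest in YID (-0.62 ± 0.29, n = 4). Complex I minus these genes was -0.84 ± 0.28 in KAV (n = 3) and 0.59 ± 0.40 in YID (n = 4). The strain test called 6 of these 13 genes, where 69% of all genes were called. With the members' mean they correlated at 0.42 (0.58 within strains). The mean of 24 nuclear genes of the mitochondrial ribosome correlated with the members' mean at 0.79 (0.76 within strains) and that of 17 citric acid cycle genes at 0.83 (0.84). Of 13038 named genes outside the members at a median of at least 1 CPM, those most like the members' mean were Idh3b (0.84), Bola3 (0.83), Etfb (0.82), Fmc1 (0.82), Suclg1 (0.82), Cyc1 (0.80), Ecsit (0.79), Eci1 (0.78), Idh3g (0.78) and Mrps34 (0.77), with correlations over 119 mice. Within strains these correlations ran from 0.66 for Idh3g to 0.80 for Idh3b. Among 16 regulators of mitochondrial biogenesis, the list mean correlated with the members' mean at 0.31, with Esrra at 0.54 and Nrf1 at -0.01. Glycolysis (16 genes) and hypoxia (12 genes) stood at 0.20 and -0.03.

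**Figure D2:**
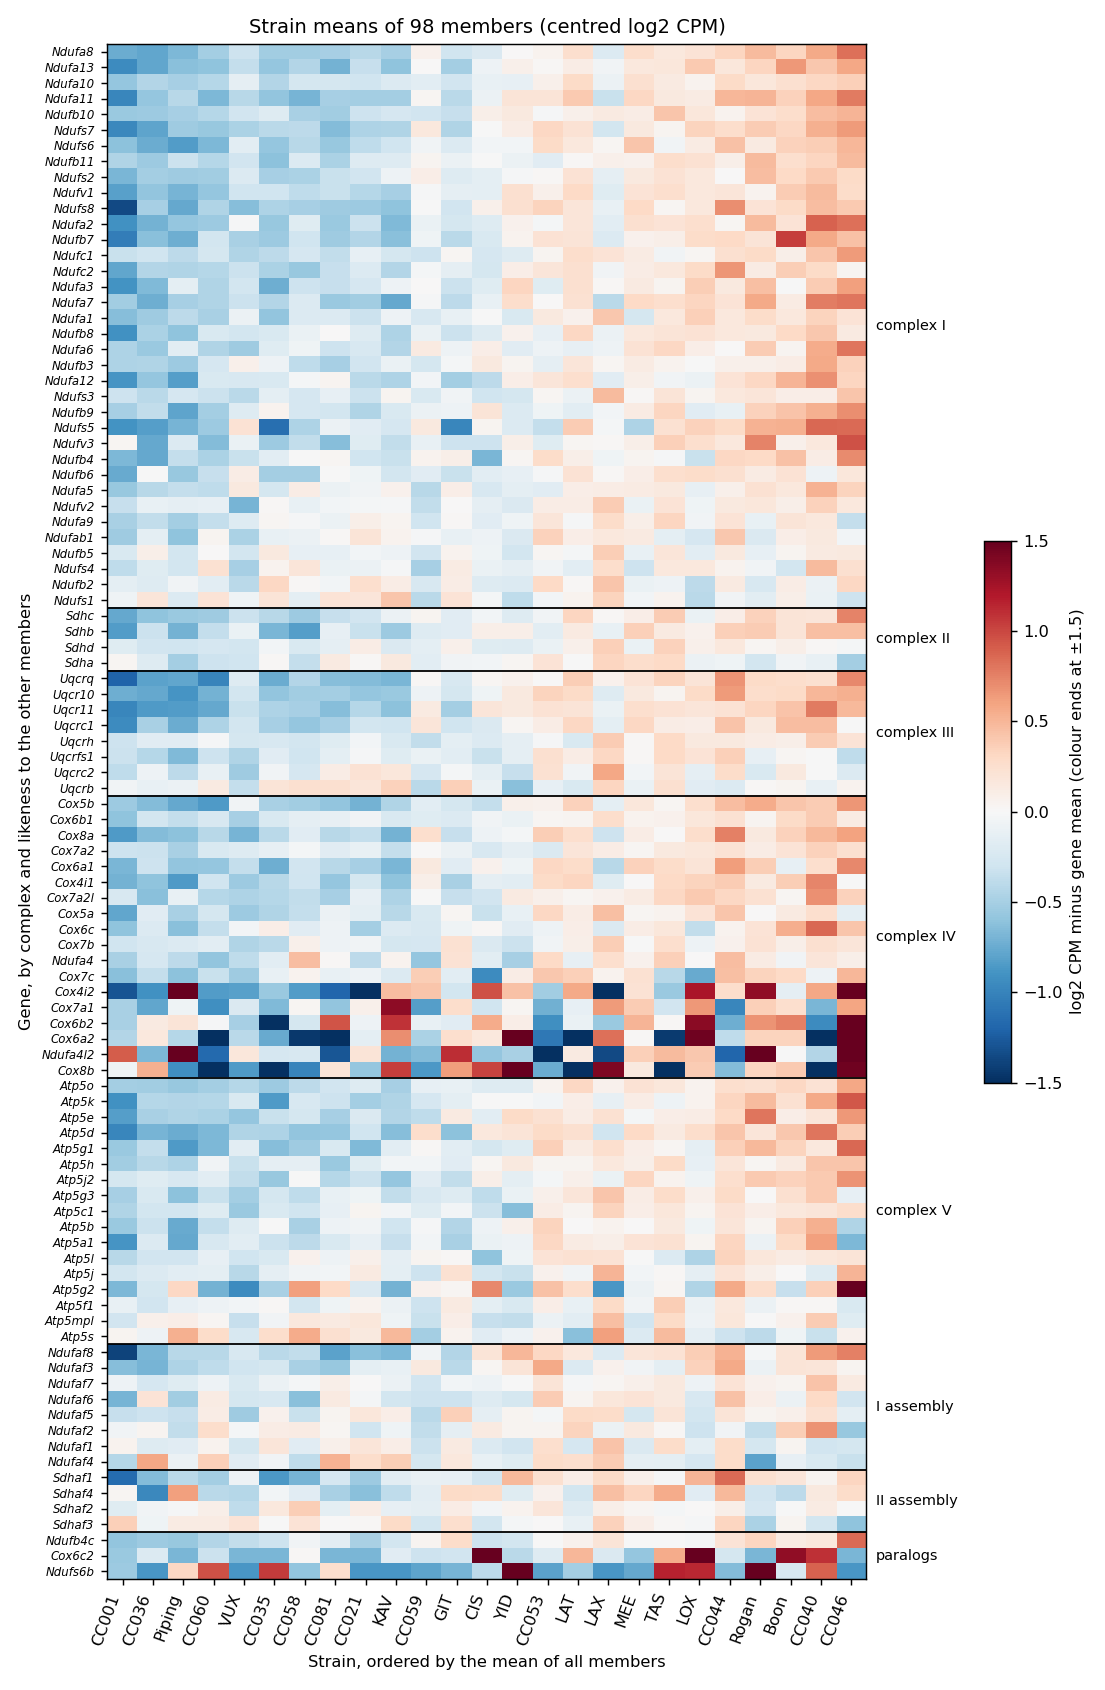
Strain means of the 98 tested members (rows, by complex and by likeness to the other members) in 25 strains (columns, ordered by the members' mean); colour is log2 CPM minus the gene's mean. Most rows of complexes I to V turn from blue at the left to red at the right, while the tissue isoforms of complex IV, several assembly factors and the paralogs follow other orders.

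The common pattern moved with the way other genes' levels in a library related to the base composition of their transcripts. For each library, the centred log2 levels of 12674 genes outside the members were correlated with the G+C content of their transcripts. This value, called the GC relation here, ran from -0.31 to 0.41 over libraries. It is computed from gene levels, and the base composition of the reads was not measured. It was below -0.1 in all libraries of 9 of the 25 strains (30 mice), at or above it in all libraries of 8 strains (36 mice), and 8 strains (37 mice) held both. The members' mean correlated with it at 0.46 (Spearman 0.52) over 119 mice. The medians of strain means were -0.32 in the 9 strains, 0.10 in the 8 strains and -0.03 in the strains with both. The 9 strains ran from CC001 to LAX (0.06), a range of 0.60, and the 8 strains from CC059 (-0.15) to CC046, a range of 0.52. Sample titles of the libraries below -0.1 carry 65 distinct numbers from 1 to 71, and those of the others hold numbers from the same span and above it; whether these numbers mark a batch is not given in the sources used here.

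Members with G+C-rich transcripts followed the GC relation most. Over 98 members, the correlation of a gene with the GC relation rose with its own G+C content (r = 0.71 across genes, which are not independent replicates; 0.76 over all 12820 genes at 5 CPM or more with known transcripts). The GC relation was itself built from most of these 12820 genes, so the value of 0.76 is in part set by its construction. The median correlation was 0.00 for 9 members under 45% G+C, 0.10 for 26 members from 45% to 50%, 0.39 for 37 members from 50% to 55% and 0.55 for 26 members above that. Ndufa11 (58.2% G+C) stood at 0.76 and Ndufa8 (54.4%) at 0.69, while Ndufaf4 (42.3%) stood at -0.39 and Uqcrb (42.2%) at -0.26. Members did not differ much from other genes in composition, with a median of 51.8% against 50.7%, but their transcripts were shorter, with a median of 694 against 2184 bases. A relation of gene levels with log2 transcript length was taken in the same way for each mouse. It ran from -0.32 in WOB2-H3, where the members' mean was 0.70, to 0.23 in CC001-D1, where that mean was -0.38. The part of transcript length in the members' mean was not tested.

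In 3 mice, tumours lay on both sides of -0.1. The members' mean was higher in the tumours of higher GC relation in each, by 0.38 in BOON-H2, 0.36 in CIS-G3 and 0.56 in GIT-K1. Over 98 members, the correlation of transcript G+C content with this difference was 0.41, 0.27 and 0.01, in the same order. A pair of members of opposite relation to G+C, chosen after their values were seen, shows it. In mouse BOON-H2, 1 tumour had a GC relation of -0.25, and its other tumours a mean of 0.24. Ndufa11 had a log2 CPM of 4.21 in the first and 5.41 on average in the others, and Ndufs1 of 6.62 and 5.78. In mouse CIS-G3, tumours at -0.22 and 0.28 had log2 CPM of 4.22 and 5.58 for Ndufa11 and of 7.01 and 6.19 for Ndufs1. In these 2 mice the genes thus moved in opposite directions between tumours of 1 animal. In mouse GIT-K1, whose tumours lay closer together (-0.15 and -0.08), both Ndufa11 (4.45 and 4.75) and Ndufs1 (6.48 and 7.36) were higher in the tumour of higher GC relation. Muscle genes took 5.75% of counts in that tumour and 0.0152% in the other, and their part was not tested.

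**Figure D3:**
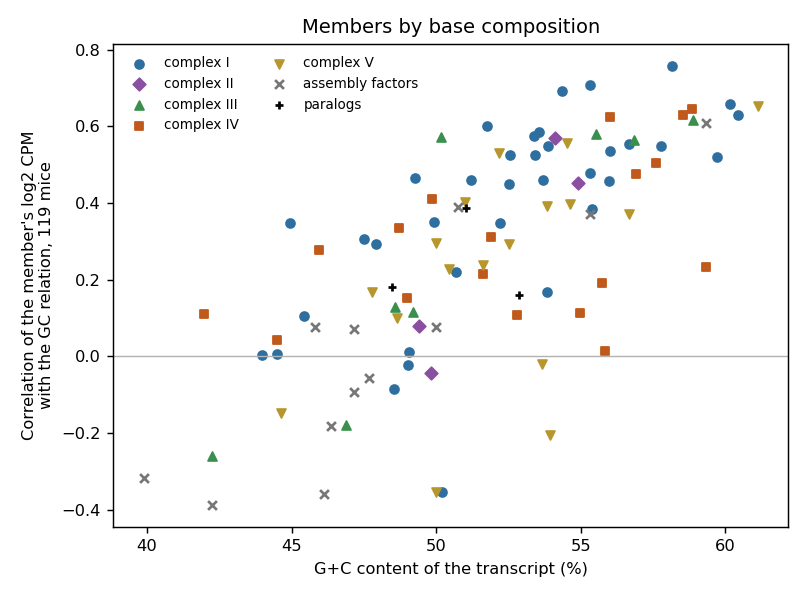
Each point is 1 of 98 members, with the G+C content of its transcript on the x axis and the correlation of its log2 CPM with the GC relation of the libraries over 119 mice on the y axis. Points rise from left to right (r = 0.71), and 22 of 25 complex I members above 50% lie over 0.3.

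With the GC relation as a covariate, chosen after seeing the data, the strain test called 31 of 98 members (31.6%) where 55% of all genes were called. All 31 were among the 69. Among strains compared within the libraries below -0.1 (43 mice of 14 strains), 13 of 96 members were called against 24% of all genes. Within the other libraries (58 mice of 14 strains), 28 of 98 members were called against 37.1%. The members' share thus fell below the background in all 3 fits. Only Atp5a1, Atp5g1, Cox4i2, Cox6a2, Cox8b and Ndufa4l2 were called in both sets of libraries. Of these, Cox6a2 and Cox8b were not called by limma-voom, an alternative to edgeR, in the strain test over all libraries. Both also moved with muscle marker genes, as described below. These sets hold different strains, so the fits also differ in mice and strains. Of complex I, 8 of 36 members were called with the covariate and of complex II none of 4. After a linear fit on the GC relation, strain accounted for 27.6% of the variance of the members' mean, again without adjustment for the number of strains. Such a share lies above 0 even without a strain effect, and it was not tested. Since most strains lie on 1 side, strain and GC relation cannot be told apart for them.

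Members that left the common pattern were sought with the members' mean as a covariate. This test called 57 of 98 members (all genes 61.7%). Without the 8 strains in which every mouse carried reads of the kidney gene Umod it called 30 (all genes 49.8%), and without mouse number 2 or 3 of each strain it called 33 (all genes 48.4%) or 34 (all genes 42.8%). With the GC relation added it called 25 (all genes 50.4%), and within the low and the other libraries 2 of 96 (all genes 16.6%) and 10 of 98 (all genes 32.1%). The same pair, Ndufa4l2 and Cox4i2, was called in every one of these fits and in all 16 alternatives run for each.

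Ndufa4l2 (chr10:127514967-127517154, GRCm38, plus strand, protein coding) is a paralog of the complex IV subunit Ndufa4 that is known as a target of the hypoxia-inducible factor. Its level spanned 2.04 to 650 CPM over mice, with a median of 10.2. In CC053 the 6 mice stood at 3.00, 3.01, 3.68, 3.70, 4.78 and 5.83 CPM. In LAX the 6 mice lay between 3.93 and 7.44 CPM. In CC046 the 3 mice stood at 44.4, 100.9 and 637 CPM, and in Rogan the 4 mice at 44.96, 55.1, 82.9 and 291 CPM. Every mouse of CC046 and Rogan was higher than every mouse of CC053 and LAX, while the Piping mice (8.84, 58.2 and 240 CPM) lay above CC053 and LAX and overlapped CC046 and Rogan. Strain means were 1.98 ± 0.37 (SD, n = 6) in CC053 and 7.15 ± 1.97 (n = 3) in CC046 on the log2 scale. Adjusted p was 5.97e-06 given the members' mean and 1.36e-05 with the GC relation added, and 0.00482 and 0.000656 within the 2 sets of libraries (edgeR). Single mice also stood apart, such as TAS-J2 at 650 CPM against 6.67 to 20.1 CPM in the other 5 TAS mice.

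Ndufa4l2 moved with genes of hypoxia rather than with its counterpart. Its log2 CPM correlated with the mean of 12 hypoxia genes at 0.73 (Spearman 0.69) over 119 mice, at 0.71 without the 2 mice farthest from the median, and at 0.75 within strains. Within the mice below and above a GC relation of -0.1 the values were 0.84 (n = 47) and 0.67 (n = 72). Vegfa (0.71), Ndrg1 (0.66) and Higd1a (0.65) were the list genes most like it. With glycolysis genes the value was 0.62, with pericyte and smooth muscle genes 0.10, and with Ndufa4 -0.15. Per kilobase, Ndufa4l2 made up a median of 9.44% of the sum of both paralogs, over 10% in 57 of 119 mice and 86.3% in LOX-C1. Ndufa4 itself did not pass the strain test (edgeR, adjusted p = 0.136).

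Cox4i2 (chr2:152754173-152765037, plus strand, protein coding), the isoform of Cox4i1 known from lung and from oxygen-sensing cells, was low in all mice, between 0 and 12.6 CPM. The CC046 mice stood at 1.25, 5.32 and 12.6 CPM and the Piping mice at 2.22, 2.42 and 4.03 CPM. The CC021 mice stood at 0.0847, 0.252 and 0.448 CPM, so that neither CC046 nor Piping overlapped with them. Adjusted p was 0.000158 given the members' mean, 0.00442 with the GC relation added, and 0.0482 and 0.0114 within the 2 sets. Its log2 CPM correlated with pericyte and smooth muscle genes at 0.40 (Spearman 0.43; 0.33 within strains) and with hypoxia genes at 0.01, over 119 mice. Cox4i2 made up at most 7.30% of the sum with Cox4i1 per kilobase, in CC046-H2.

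**Figure D4:**
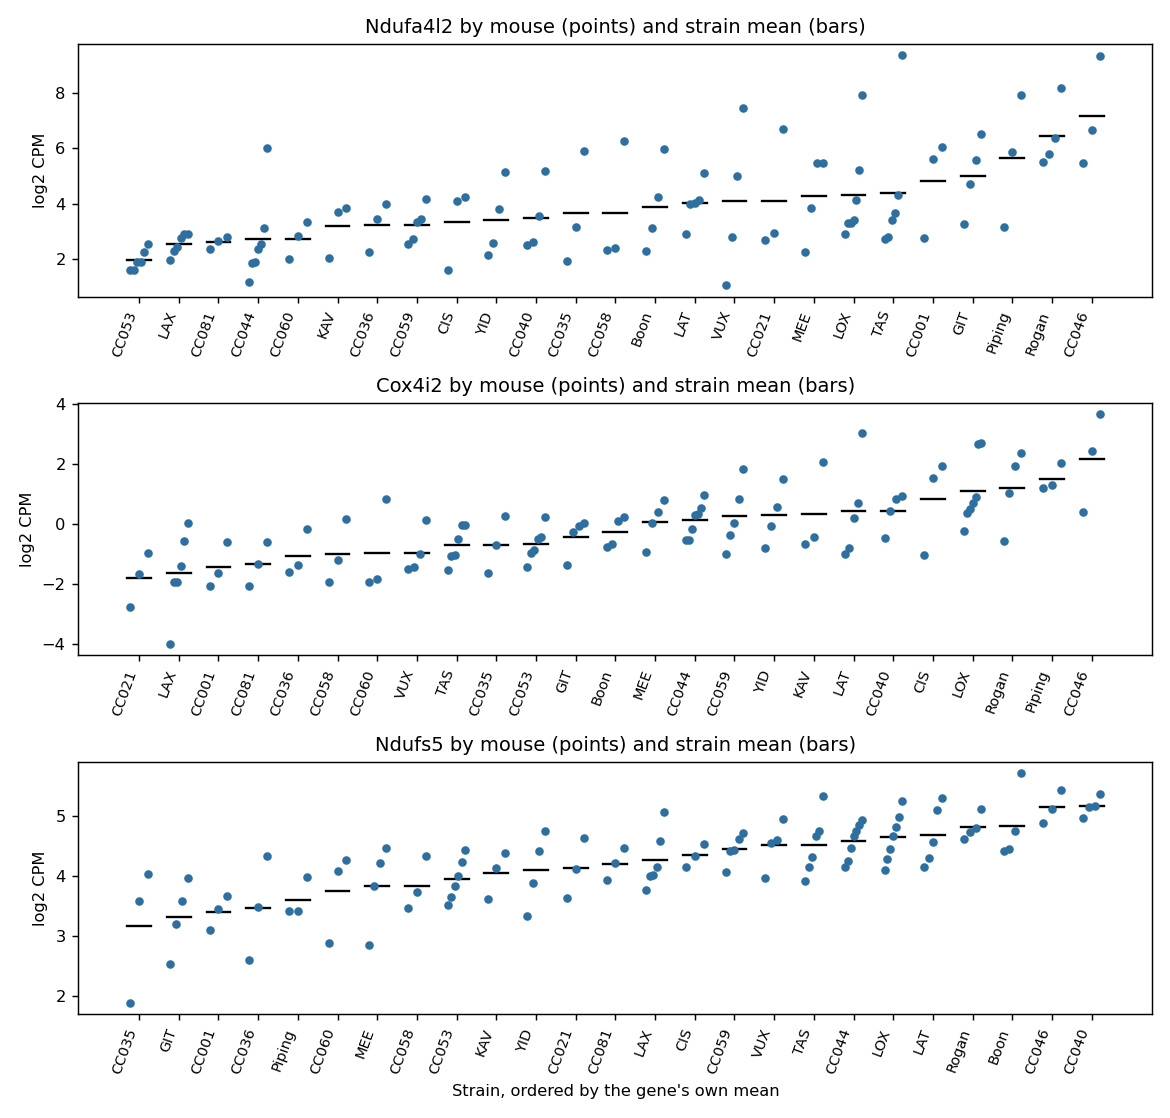
Log2 CPM of Ndufa4l2, Cox4i2 and Ndufs5 in each mouse (points) of 25 strains, with strain means (bars), each panel ordered by its own means. CC046 is at or next to the top in all panels, CC053 is lowest for Ndufa4l2, CC021 for Cox4i2 and CC035 for Ndufs5.

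The muscle isoforms of complex IV were highest in mice with muscle RNA. Cox6a2, Cox8b and Cox7a1 are the forms of Cox6a1, Cox8a and Cox7a2 that heart and skeletal muscle use. In 9 mice the 15 muscle marker genes took over 1% of counts. In these, Cox6a2 lay between 62.6 and 677 CPM (median 103.97), and in the other mice it lay between 0 and 71.6 CPM (median 0.667), with 2 of them above 62.6. Cox8b lay between 6.89 and 83.8 CPM against 0 to 15.2 CPM, and Cox7a1 between 3.07 and 88.4 CPM against 0.0860 to 11.1 CPM. Correlations with the muscle list over 119 mice were 0.91 for Cox6a2, 0.92 for Cox8b and 0.74 for Cox7a1 (Spearman 0.74, 0.79 and 0.47). With 11 genes of brown and white adipocytes they were 0.52, 0.67 and 0.45, in the same order. The parts of the 2 tissues were not tested. TOFU-K2 held 6.42% of muscle counts, and there Cox6a2 made up 89.1%, Cox8b 63.2% and Cox7a1 60.99% of the sum with the counterpart per kilobase. That mouse alone held 30.2% of the summed CPM of Cox6a2 over all mice.

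Several mice of highest members' mean also carried RNA of other tissues, and others did not. TOFU-K2 stood at 1.66 and PUB-I1 at 1.45, with muscle genes at 6.42% and 3.72% of counts. TAS-I1 stood at 1.16 and LAX-E2 at 0.73, with hepatocyte genes at 18% and 23.7% of counts. VIT-A2 stood at 0.74 with muscle genes at 0.00518% and hepatocyte genes at 0.0044%. WOB2-H3 stood at 0.70 with muscle genes at 0.0224% and hepatocyte genes at 0.0318%. The genes of mitochondrial DNA took 16% of counts in TOFU-K2. Their part in the members' mean was not tested. Of the remaining tissue isoforms, Cox6b2 (known from testis) had a median of 0.516 CPM and reached 9.03 CPM in KAV-G2, and its correlation with pericyte and smooth muscle genes was 0.43. Cox7b2 was listed at 0 in 81 of 119 mice, and Cox8c reached at most 0.0662 CPM. Neither passed the filter, nor did Ndufa11b and a second Atp5o entry. Of 9 male germ cell markers none had a median of 1 CPM.

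**Figure D5:**
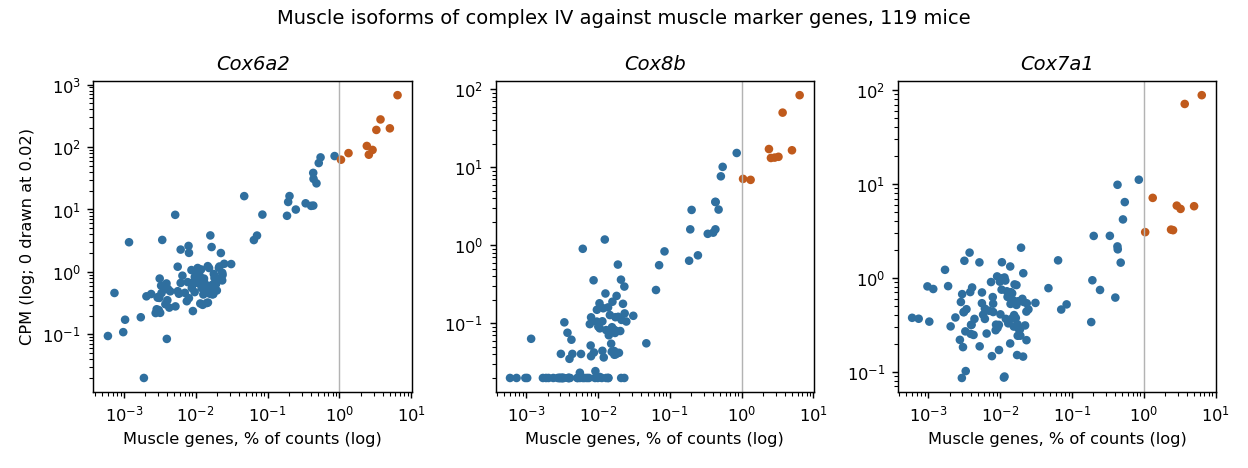
CPM of 3 muscle isoforms of complex IV against the share of counts taken by 15 muscle marker genes in 119 mice, both on log axes (values of 0 drawn at 0.02 CPM). The 9 mice over 1% (orange) hold the highest value of each gene, and 2 to 4 other mice lie above the lowest of the 9.

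Ndufs5 (chr4:123712710-123718202, minus strand, protein coding), an accessory subunit of complex I, departed from the members' mean in both directions. Its correlation with the other members over strain means was 0.77, near the median of 0.76, so it kept much of the common order. The CC040 mice stood at 31.4, 35.6, 35.9 and 41.02 CPM and the CC046 mice at 29.5, 34.9 and 43.3 CPM. The GIT mice stood at 5.73, 9.17, 11.97 and 15.5 CPM and the CC035 mice at 3.65, 11.98 and 16.3 CPM. The 2 pairs of strains did not overlap. Its departure from the members' mean was -0.86 ± 0.35 (SD, n = 4) in GIT and 0.61 ± 0.17 (n = 4) in CC040 on the log2 scale. Adjusted p was 0.000397 given the members' mean, 0.0129 with the GC relation added, and 0.566 within the low libraries.

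Uqcrb and Ndufs1 did not follow the common order, with correlations of -0.11 and -0.30 with the other members over strain means. Uqcrb (chr13:66900617-66905378, minus strand) encodes the ubiquinone-binding protein of complex III, and Ndufs1 (chr1:63143596-63176833, minus strand) the large iron-sulfur subunit of complex I. Uqcrb stood at 24.95, 38.3, 43.9 and 61.2 CPM in YID and at 53.7, 92.3 and 97.8 CPM in KAV, ranges that overlap. Ndufs1 stood at 86.1, 108.5 and 158.9 CPM in KAV and at 52.04, 70.5 and 88.98 CPM in CC046, which again overlap. The departure from the members' mean was -0.63 ± 0.50 (n = 4) in YID and 0.54 ± 0.18 (n = 3) in KAV for Uqcrb, and 0.62 ± 0.18 (n = 3) in KAV for Ndufs1. Given the members' mean, adjusted p was 9.53e-08 for Uqcrb and 9.78e-07 for Ndufs1, and 0.0482 and 0.0285 with the GC relation added. Within the low and the other libraries it was 0.307 and 0.815 for Uqcrb and 0.503 and 0.151 for Ndufs1, so neither was called there.

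Among the members of lowest p, Ndufb5 (complex I, p = 1.60e-05), Ndufa7 (complex I, p = 0.000812) and Cox7b (complex IV, p = 7.56e-06) were also called given the members' mean (edgeR, adjusted). With the GC relation added their adjusted p was 0.659, 0.374 and 0.0128, and within the 2 sets of libraries none of them was called. Ndufa7 stood at 11.9, 15.1 and 15.3 CPM in KAV and at 32.3, 36.5, 45.9 and 52.3 CPM in CC040, without overlap. Without the 8 strains with Umod, adjusted p was 0.0726 for Cox7b and 0.0619 for Ndufa7.

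The assembly factors, which help to build complexes I and II and are not part of them, held most of the members least like the rest. Sdhaf3 (-0.48), Ndufaf4 (-0.27), Ndufaf1 (-0.08), Ndufaf2 (0.01) and Sdhaf2 (0.10) were among the 8 lowest correlations with the other members over strain means, with Atp5s (-0.35), Ndufs1 (-0.30) and Uqcrb (-0.11). Of these 8, Atp5s and Ndufs1 differed between strains in the strain test. Sdhaf3, at a median of 3.13 CPM, did not pass it (adjusted p = 0.785). Other assembly factors kept the common order, with Ndufaf8 at 0.86, Sdhaf1 at 0.83, Ndufaf3 at 0.73 and Ndufaf7 at 0.68. The mean of the 12 assembly factors correlated with the GC relation at 0.08, against 0.51 for complex I, and the median G+C of their transcripts was 47.2% against 52.96%. Their counts were also lower, with a median log2 CPM of 2.91 (complex I factors) and 2.83 (complex II factors) against 5.12 for complex I. The parts of G+C content and of low counts in these correlations were not tested. Sdhaf4 stood at 5.45, 8.62 and 9.23 CPM in Piping, 3.10, 3.64, 3.82 and 4.64 CPM in Boon and 1.39, 3.33 and 3.34 CPM in CC036. All Piping mice were above all Boon and CC036 mice, and its adjusted p was 0.00114 given the members' mean and 0.00285 with the GC relation added.

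Of the copies annotated as processed pseudogenes, Cox6c2 was at or near 0 in most mice and above 7 CPM in 7 mice. It stood at 0 in 78 of 119 mice and at most at 0.145 CPM in another 33. It reached 1.78 CPM in LAT-D3 and 7.62, 7.68 and 18.04 CPM in 3 of 7 LOX mice, 11.2 CPM in TAS-H2, 10.5 CPM in CIS-G4, 8.86 CPM in CC040-E1 and 7.77 CPM in BOON-H2. Mice of the same strain were thus split. Tumours of 1 mouse were split too: in BOON-H2, log2 CPM per tumour was 4.61 in Tu3, -1.90 in Tu1 and -3.50 in Tu2. Its adjusted p given the members' mean was 4.98e-06 with edgeR and 0.652 with limma-voom. Ndufs6b stood at 0 in 56 mice and at most at 1.02 CPM. It was listed at 0 in all 3 CC046 mice and at 0.392, 0.424, 0.515 and 0.788 CPM in the 4 YID mice (adjusted p 5.32e-10). Both are near copies of expressed members, and reads could be shared with these. One further value was singled out after it was seen: Ndufb7, a complex I subunit, stood at 435 CPM in BOON-I2 and at 28.97, 31.2 and 64.1 CPM in the other Boon mice, while the next highest of all mice was TOFU-K2 at 122 CPM.

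Mice below median survival were compared with those above it. The members' mean had a median of -0.04 (-0.77 to 1.66) in 83 mice above and of -0.09 (-0.66 to 1.45) in 36 mice below, and these ranges overlap almost fully. Of 95 tested members 1 was called, Sdhaf4, while 1.56% of 17091 genes were called. Sdhaf4, which assists the flavoprotein of complex II, stood at a median of 4.6 CPM (1.39 to 14) above and 5.84 CPM (3.43 to 13.6) below. It was higher in mice below median survival by 0.43 ± 0.11 (SE) on the log2 scale, with an adjusted p of 0.0133 (edgeR). Without mouse TAS-I1, in which it stood at 13.6 CPM, adjusted p was 0.0636 and no member was called, while 0.858% of all genes were. Without the libraries over 1% of another tissue it was 0.0814, and limma-voom gave 0.683 and called no gene. The median log2 difference of the members was 0.05, against -0.02 for all genes, and without TAS-I1 it was -0.003.

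Within strains no gene passed with edgeR. In 13 strains with both classes (57 mice), the members' mean was lower below the median in 11 strains and higher in 2, CC053 and LAT. In 7 of these 11 strains the gap was smaller than the pooled SD within strains, 0.28, and no test of the mean was run. The gap was largest in VIT, with 1 mouse of each class, at -0.97. The GC relation differed between the classes with the same sign as the mean in 8 of the 13 strains, among them CC044 (0.11 above and -0.05 below) and CC053 (-0.09 and 0.09), and its part was not tested. With strain as a covariate edgeR called 0 of 95 members and 0.0% of 16481 genes, while at an unadjusted p under 0.05 there were 12 members (12.6%) and 11.4% of all genes. DESeq2 called 65 genes and no member. The median log2 difference was -0.16 over members and -0.01 over all genes, and 13 of 95 members had a positive difference. Lowest p had Ndufab1, the acyl carrier protein, at -0.36 ± 0.11 (adjusted p = 0.383), Ndufs7 at -0.34 ± 0.13 (0.403) and Cox8a at -0.32 ± 0.12 (0.403). The highest was Cox6b2 at 0.80 ± 0.35 (0.422), followed by Sdhaf3 at 0.25 ± 0.15 and Ndufaf2 at 0.20 ± 0.12 (0.510 each). Sdhaf4 stood at 0.07 ± 0.14 there, with an adjusted p of 0.882.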

How the data were processed

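Tools named in the submitters' processing notes include kallisto 0.46.1 and build GRCm38; its settings were not given in the sources used here. Values deposited by the authors are an estimated count for each gene in each tumour, as whole numbers without normalization. A second deposited table, named as normalized, holds the same values for fewer genes and was not used. Symbols were matched for 35825 of 36118 gene IDs. Counts were summed per mouse, filtered (filterByExpr) and scaled (TMM), and the tests used edgeR 4.0.16 (R 4.3.3, quasi-likelihood F-test, Benjamini-Hochberg over all genes, threshold 0.05); limma 3.58.1 and DESeq2 1.42.0 were alternatives. Log2 CPM carry a prior count of 2. Transcript lengths and G+C content are from GENCODE M21. The GC relation used genes at 5 CPM or more; its limit of -0.1 and the fits that use it were chosen after seeing the data. Members and gene lists were chosen with earlier results of these data known. Named members were the tissue isoforms of complex IV with their counterparts, the 10 of lowest p given the members' mean, the 8 least like the others, the highest and lowest of each complex, and those of lowest p by survival; Ndufa8, Ndufa11, Atp5o, Ndufa13 and Ndufb7 were chosen after their values were seen. Of the 167 count columns, 165 matched 1 sample title and 2 only their mouse and class.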

Additional observations from a re-analysis of the deposited data

Results flagged for a closer look

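Of 178 comparisons of a gene or the members' mean within a strain of 4 to 7 mice, 22 held 1 mouse farther from the rest than the 95% limit for a gap, a limit that chance passes in about 1 of 20. In 7 of the 22 all other mice were at 0 counts, so that any count sets a mouse apart and this rate does not apply. All values are log2 CPM, and the level of a gene listed at 0 is -3.99. The members' mean stood at -0.17 in VUX2-B1 (-0.38 to -0.36 in the other mice of VUX). Ndufs6b stood at -1.78 in BOON-I2 (-3.99 to -3.70 in the other mice of Boon), -3.60 in CC053-G3 (-3.99 to -3.99 in the other mice of CC053), -3.60 in CC059-B1 (-3.99 to -3.99 in the other mice of CC059), -3.28 in GIT-H3 (-3.99 to -3.99 in the other mice of GIT) and -3.58 in MEE-E2 (-3.99 to -3.99 in the other mice of MEE). Uqcrb stood at 6.57 in BOON-I2 (5.77 to 5.83 in the other mice of Boon), 5.44 in CC040-E4 (5.94 to 6.03 in the other mice of CC040) and 6.47 in ROGAN-J2 (5.77 to 5.86 in the other mice of Rogan). Ndufs1 stood at 6.36 in CC059-F2 (5.86 to 5.99 in the other mice of CC059) and 6.94 in MEE-I2 (6.14 to 6.25 in the other mice of MEE). Cox6c2 stood at 2.97 in BOON-H2 (-3.99 to -3.27 in the other mice of Boon), 3.16 in CC040-E1 (-3.99 to -3.99 in the other mice of CC040), 0.88 in LAT-D3 (-3.99 to -2.95 in the other mice of LAT), -3.54 in MEE-B1 (-3.99 to -3.99 in the other mice of MEE) and 3.50 in TAS-H2 (-3.99 to -3.99 in the other mice of TAS). Ndufa4l2 stood at 6.02 in CC044-D3 (1.20 to 3.12 in the other mice of CC044) and 9.34 in TAS-J2 (2.75 to 4.34 in the other mice of TAS). Cox7b stood at 5.54 in CC044-F2 (6.32 to 6.62 in the other mice of CC044). Ndufb5 stood at 6.83 in TAS-I1 (4.87 to 5.54 in the other mice of TAS). Ndufa7 stood at 5.89 in TAS-I1 (4.30 to 4.85 in the other mice of TAS). Sdhaf4 stood at 1.36 in LAT-D2 (2.05 to 2.32 in the other mice of LAT). Muscle genes took 2.40% of counts in BOON-I2 and 1.33% in MEE-I2, and hepatocyte genes 18% in TAS-I1; their part was not tested.

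Outside the members, Ndufb1-ps was the only one of the 9 symbols with -ps at a median above 0, with 11.1 CPM (5.04 to 42.8 over 119 mice). Its log2 CPM correlated with the members' mean at 0.67, a description over mice.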

How the results depend on the processing

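Of 98 members, 69 were called in the strain test and 57 given the members' mean. With the GC relation as a covariate these counts were 31 and 25, within the low libraries 13 and 2, and within the other libraries 28 and 10; the within-set fits use fewer mice. Without the 8 strains with Umod in every mouse, 30 were called given the members' mean, and the cause was not tested. Leaving out the mouse of each number in turn gave 51 to 71 and 33 to 56. No paired analysis was possible because the mouse numbers follow the order of deposit and link no mice across strains. The 1 call by survival fell to 0 with limma-voom, when libraries holding over 1% of other tissues were dropped and without TAS-I1. The range of strain means, 0.91, lay between 0.69 without scaling and 0.95, and between 0.91 and 0.95 when a mouse was left out of each strain. The highest strain changed to CC044 without scaling, and to CC040 without the tissue isoforms or without mouse number 1 of each strain. The lowest changed to CC058 without mouse number 2. In the remaining settings CC001 was lowest and CC046 highest. All other alternatives kept the counts of called members within 1.5 times. Within strain no alternative called a member.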
